A study of Mus musculus with 23 samples.

Results

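Triglyceride synthesis acyltransferases and lipins are described here as 9 genes, chosen by symbol: Gpam, Agpat2, Agpat3, Lpin1, Lpin2, Lpin3, Dgat1, Dgat2 and Mogat1. All 9 were found among the 24062 genes counted and all 9 passed the filter on low counts, as did 14196 genes in all. Liver RNA came from 23 mice of a B6/129 background, each giving 1 library of polyA-captured, single-end reads. Wild-type mice (WT) were set against mice with a knockout (KO) of Ehhadh, which encodes the L-bifunctional protein of peroxisomal fatty acid oxidation, and each genotype received saline or L-AC. The labels give L-AC by that abbreviation alone, and its dose, its duration, the feeding state of the mice and the removed part of Ehhadh are not given in the sources used here. The groups were WT on saline (7 mice, 29 to 45 weeks old), KO on saline (5 mice, 31 to 44 weeks), WT on L-AC (6 mice, 28 to 44 weeks) and KO on L-AC (5 mice, 28 to 38 weeks).

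In the liver, triglyceride is built on glycerol 3-phosphate. Gpam and its relatives add the first fatty acid, Agpat enzymes add another to make phosphatidic acid, lipins remove the phosphate to give diacylglycerol, and Dgat1 or Dgat2 adds the last fatty acid. Mogat1 reaches diacylglycerol by another route, from monoacylglycerol. Lipins also enter the nucleus, where Lpin1 acts with PPARα and its coactivator on genes of fatty acid oxidation, and Dgat2 is the enzyme usually tied to newly made fatty acids.

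Each library held 24521896 to 48095959 counted reads, and the 9 genes took 0.126 to 0.200% of them in WT mice given saline and 0.273 to 0.355% in WT mice given L-AC. In KO mice they took 0.151 to 0.165% under saline and 0.259 to 0.340% under L-AC. Ehhadh itself fell by 2.75 on the log2 scale in KO against WT under saline (adjusted p = 1.94e-06) and by 2.98 under L-AC (adjusted p = 6.87e-07), in the direction of the labels. It was also higher with L-AC in both genotypes, from 954 ± 335 to 13037 ± 1602 CPM in WT and from 142 ± 64.3 to 1658 ± 286 CPM in KO (SD), so that KO livers kept reads of the targeted gene. The defining hepatocyte markers Alb, Ttr, Apoa1, Apob, Cps1 and Hnf4a were detected in every group and summed to 30744 to 67097 CPM, the count scaled to the library size. Under L-AC, 2 of these 6 were lower in WT and 4 of 6 in KO, and the sum ran from 41370.4 to 51974 CPM in WT L-AC against 51944 to 62121 CPM in WT saline. Their sum in KO was 30744 to 52598 CPM under L-AC and 56664 to 67097 CPM under saline. Kupffer cell markers were lower under L-AC for 3 of 5 in WT and 2 of 5 in KO, and stellate cell markers were higher for 3 of 4 in WT and 1 of 4 in KO. Of 5 endothelial markers 1 was lower in WT and 2 in KO, and of 5 leukocyte markers 1 was higher and 2 lower in WT, and 1 higher and 1 lower in KO. Adipocyte markers, of a tissue that also makes triglyceride, summed to 0.0419 to 10.2 CPM, with Lep at 0 throughout 3 of the 4 groups. Acinar and muscle markers summed to at most 33.3 and 1.53 CPM. What these shifts contributed to the results was not tested, and in whole liver fewer cells of a type and less RNA per cell cannot be told apart. Levels are in CPM over the TMM-scaled library size, and all adjusted p-values come from the quasi-likelihood test of edgeR with Benjamini-Hochberg adjustment over the 14196 genes tested.

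L-AC was followed by higher levels of most of these genes. In WT livers 6 of the 9 were called higher and 0 lower at an adjusted p under 0.05, where 26.6% of all genes tested were called higher and 26.7% lower. In KO livers 7 of the 9 were called higher and 0 lower, against 25.2% and 23.6% of all genes. The genes called in both genotypes were Gpam, Agpat2, Agpat3, Lpin2, Lpin3 and Dgat1, and Mogat1 was called in KO. The median log2 fold change of the 9 was 0.71 in WT and 0.78 in KO, where the median of all genes tested was -0.01 in both. For 5 genes in WT (Gpam, Agpat3, Lpin2, Lpin3 and Dgat1) and 4 in KO (Agpat3, Lpin2, Lpin3 and Dgat1) every L-AC library lay above every saline library. How many of all genes tested separated in this way was not counted, so these counts have no background to be set against. The L-AC comparison of each genotype used its own saline animals, and the values of each are given side by side.

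**Figure D1:**
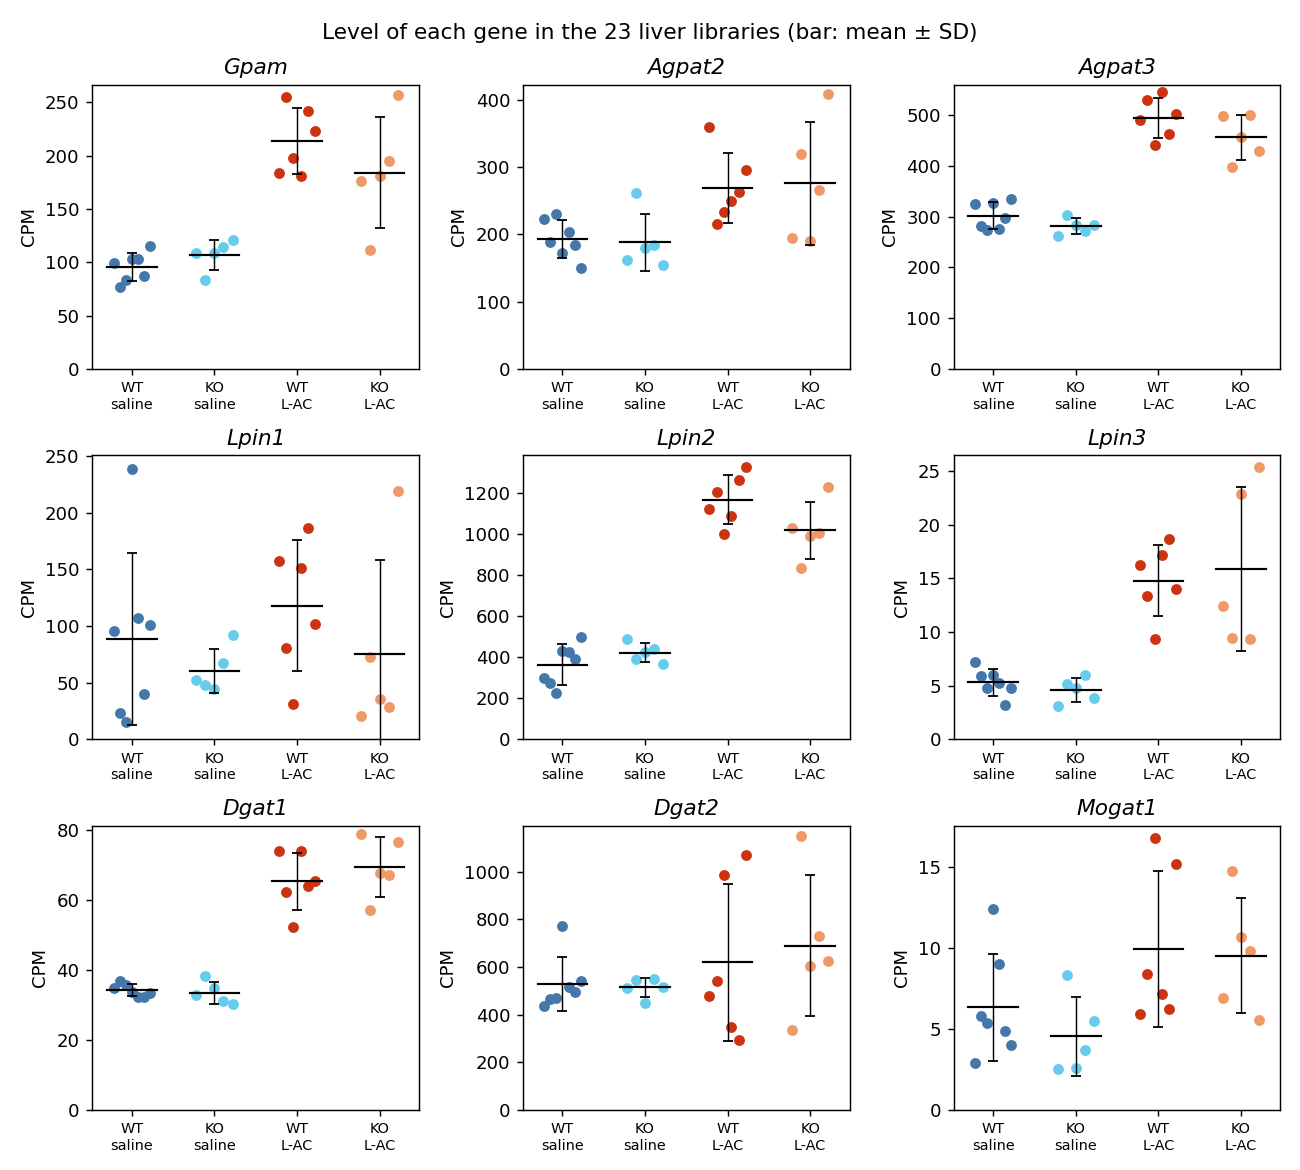
Level of each gene in CPM (y axis, linear, from 0) in the 23 livers, by genotype and treatment; points are single mice, the horizontal bar is the mean and the whiskers are SD, cut off at 0 for Lpin1 in KO L-AC. Agpat3, Lpin2, Lpin3 and Dgat1 show L-AC livers above all saline livers of their genotype in both genotypes. Agpat2, Lpin1, Dgat2 and Mogat1 overlap in both, and Gpam overlaps in KO alone.

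Gpam, the mitochondrial enzyme that adds the first fatty acid to glycerol 3-phosphate, is encoded on chromosome 19 (55069734 to 55099447, minus strand, mm10). Its level was 77.2 to 115 CPM with a median of 99.4 in the 7 WT saline libraries and 181 to 255 CPM with a median of 210.4 in the 6 WT L-AC libraries. The 5 KO saline libraries had 108, 83.6, 109, 114 and 121 CPM, and the 5 KO L-AC livers had 176, 112, 181, 195 and 257 CPM. All WT L-AC livers were above all WT saline livers, whereas KO L-AC replicate 2, at 112 CPM, lay under KO saline replicates 4 and 5. Gpam was 2.24-fold higher with L-AC in WT (log2 fold change 1.16 with SE 0.141 and adjusted p = 5.64e-07) and 1.72-fold higher in KO (log2 fold change 0.78 with SE 0.161 and adjusted p = 3.68e-04).

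Agpat2 and Agpat3 acylate lysophosphatidic acid. Agpat2 (chromosome 2, 26593057 to 26604417, minus strand) is the member lost in a congenital lipodystrophy of humans. Its WT libraries ran from 151 to 229.6 CPM with a median of 189 under saline and from 215 to 359.9 CPM with a median of 256 under L-AC. The KO saline libraries had 161, 261, 179.7, 184 and 155 CPM and the KO L-AC livers 195, 319, 189.7, 266 and 409 CPM. The groups overlapped in both genotypes, with KO saline replicate 2 above 2 KO L-AC livers. Agpat2 was 1.39-fold higher in WT (log2 fold change 0.48 with SE 0.166 and adjusted p = 0.0186) and 1.47-fold higher in KO (log2 fold change 0.55 with SE 0.190 and adjusted p = 0.0196). These calls were lost when single animals were left out: the adjusted p was 0.0640 in WT without WT L-AC replicate 1, and in KO it was 0.0978 without KO L-AC replicate 5 and 0.0531 without KO saline replicate 5.

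Agpat3 (chromosome 10, 78271563 to 78351700, minus strand) varied less between mice than any other of the 9 under L-AC in WT. Its levels were 274 to 335 CPM with a median of 297 in WT saline and 441 to 545 CPM with a median of 496 in WT L-AC. In KO they were 261, 304, 283, 272 and 283 CPM under saline and 497, 397, 457, 500.3 and 429.5 CPM under L-AC. No L-AC liver of either genotype fell within the saline range of its genotype. Agpat3 was 1.64-fold higher in WT (log2 fold change 0.71 with SE 0.0753 and adjusted p = 7.94e-08) and 1.63-fold higher in KO (log2 fold change 0.70 with SE 0.0862 and adjusted p = 8.53e-07).

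The 3 lipins, which turn phosphatidic acid into diacylglycerol, were not all called: Lpin2 and Lpin3 were higher in both genotypes and Lpin1 was called in neither, with no test made between the genes. Their promoter windows are shown to set the called and the uncalled lipins side by side, each 250 bases before and 50 after a start site of RefSeq on GRCm38.p6, 5′ to 3′ on the strand of the gene. Lpin2 lies on chromosome 17 (71183978 to 71249818, plus strand), Lpin3 on chromosome 2 (160880670 to 160906000, plus strand) and Lpin1 on chromosome 12 (16535669 to 16589770, minus strand). The windows are chr17:71183282-71183581 for Lpin2, chr2:160880420-160880719 for Lpin3 and chr12:16610917-16611216 for Lpin1, and capitals mark the E-box CACGTG.
Lpin2: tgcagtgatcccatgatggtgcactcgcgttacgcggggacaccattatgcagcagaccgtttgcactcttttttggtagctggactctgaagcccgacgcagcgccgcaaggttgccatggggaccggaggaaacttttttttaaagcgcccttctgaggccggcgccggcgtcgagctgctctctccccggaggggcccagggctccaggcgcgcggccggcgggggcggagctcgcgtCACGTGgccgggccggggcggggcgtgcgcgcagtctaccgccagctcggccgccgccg
Lpin3: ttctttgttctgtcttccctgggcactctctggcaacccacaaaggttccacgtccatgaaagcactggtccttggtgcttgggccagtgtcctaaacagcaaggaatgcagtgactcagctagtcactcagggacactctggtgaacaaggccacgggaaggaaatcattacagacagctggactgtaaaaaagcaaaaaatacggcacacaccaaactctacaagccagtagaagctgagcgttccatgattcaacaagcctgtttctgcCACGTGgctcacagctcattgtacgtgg
Lpin1: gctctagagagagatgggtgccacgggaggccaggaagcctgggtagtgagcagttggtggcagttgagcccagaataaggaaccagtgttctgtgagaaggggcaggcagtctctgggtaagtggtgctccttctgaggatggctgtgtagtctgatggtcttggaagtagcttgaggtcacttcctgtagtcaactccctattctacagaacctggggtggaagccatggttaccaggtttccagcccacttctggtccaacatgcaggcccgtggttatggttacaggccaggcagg
The Lpin3 window is the first of 2 for that gene. The Lpin2 window is the first of 3 and its start site lies 446 bases before the gene start of the count files. The second Lpin2 window, whose start site is that gene start, held no E-box, and neither did the third. The Lpin1 window lies 21196 bases before the gene start of the count files, so it is not the start of the counted gene model.

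Motifs were searched on both strands in the 11 windows of the 7 genes that had one: the E-box, TCACNCCAC (sterol response element), AGGTCAAAG (start of a direct repeat 1), ACANNNTGT (core of a glucocorticoid response element), TGACGTCA (cAMP response element) and the CCAAT box. Dgat1 and Dgat2 were not searched. The E-box stood at position -9 in the Lpin2 window and at position 22 in the Lpin3 window, counted from 0 at the start site, and 7.15% of the 32851 windows of all genes and 9.59% of those of the genes tested hold it. The other Lpin3 window and the second Lpin2 window held none of the 6 motifs. The Lpin1 window above held none of the 6 motifs. The CCAAT box, searched as those 5 letters, is held by 37.4% of all windows. It stood on the minus strand at position -74 of the first Gpam window and at position 24 of the Mogat1 window. The third Lpin2 window, which lies inside the counted gene, held it at 3 positions, also on the minus strand. The first Gpam start site lies 27791 bases before the counted gene start. The second Gpam window, with its start site 30 bases before the counted gene start, held none of the 6 motifs. No match was found in the Agpat2 and Agpat3 windows. The other motifs, held by 1.24% (sterol response element), 0.426% (direct repeat 1 start), 6.85% (glucocorticoid element core) and 1.79% (cAMP response element) of all windows, were in none of the 11. A match describes letters only and shows no binding.

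Lpin2, a lipin that is abundant in liver, had the largest fold change of the 9 in WT. Its level ran from 226 to 497 CPM with a median of 391 in WT saline and from 1001 to 1328 CPM with a median of 1163 in WT L-AC. The KO saline libraries had 488, 393, 425, 438 and 369 CPM, and the KO L-AC livers had 1031, 837, 991, 1003 and 1229.7 CPM. Every L-AC liver was above every saline liver in both genotypes. Lpin2 was 3.21-fold higher in WT (log2 fold change 1.68 with SE 0.145 and adjusted p = 4.23e-09) and 2.41-fold higher in KO (log2 fold change 1.27 with SE 0.166 and adjusted p = 1.89e-06).

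Lpin3 was the least abundant lipin. It had 3.21 to 7.23 CPM with a median of 5.23 in WT saline and 9.33 to 18.7 CPM with a median of 15.2 in WT L-AC. KO saline livers had 3.08, 5.12, 4.78, 5.99 and 3.86 CPM and KO L-AC livers 12.4, 9.48, 22.9, 9.33 and 25.3 CPM. The L-AC values of KO formed a low set of 3 and a high pair, replicates 3 and 5, all above the saline livers. Lpin3 was 2.79-fold higher in WT (log2 fold change 1.48 with SE 0.234 and adjusted p = 1.64e-05) and 3.48-fold higher in KO (log2 fold change 1.80 with SE 0.273 and adjusted p = 1.26e-05).

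Lpin1 differed widely between mice of 1 group. It ran from 14.97 to 238 CPM with a median of 95.6 in WT saline, with replicate 4 highest and replicate 3 lowest, and from 30.7 to 187 CPM with a median of 126 in WT L-AC. KO saline livers had 51.9, 47.5, 44.0, 67.4 and 91.7 CPM and KO L-AC livers 20.2, 72.4, 35.2, 28.4 and 219 CPM, of which replicate 5 stood far above the rest. The groups overlapped throughout. The log2 fold change with L-AC was 0.42 in WT (SE 0.560, adjusted p = 0.548) and 0.31 in KO (SE 0.640, adjusted p = 0.708), with 95% intervals of 0.598 to 2.98 and 0.495 to 3.10 times the saline level. Without KO L-AC replicate 5 the KO value was -0.63 (adjusted p = 0.412).

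Per length of transcript, as CPM per kilobase (RPKM), Lpin2 made up most of the lipin RNA in all 23 livers. Its share of the summed RPKM of the 3 lipins in WT was 80.7 ± 10.2% under saline (SD, n = 7) and 89.2 ± 4.36% under L-AC (n = 6), and in KO 85.8 ± 4.40% (n = 5) and 91.5 ± 5.70% (n = 5). Lpin1 held 17.1 ± 10.5 and 8.97 ± 4.07% in WT and 12.7 ± 4.39 and 6.22 ± 5.44% in KO, saline first. WT saline replicate 4, the liver with most Lpin1, had the lowest share of Lpin2, 62.9%. Lpin3 held 0.939 to 3.57% over all livers. The summed level was 79.0 ± 26.9 RPKM in WT saline and 224 ± 26.7 RPKM in WT L-AC, and 83.9 ± 6.62 and 191 ± 37.1 RPKM in KO.

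**Figure D2:**
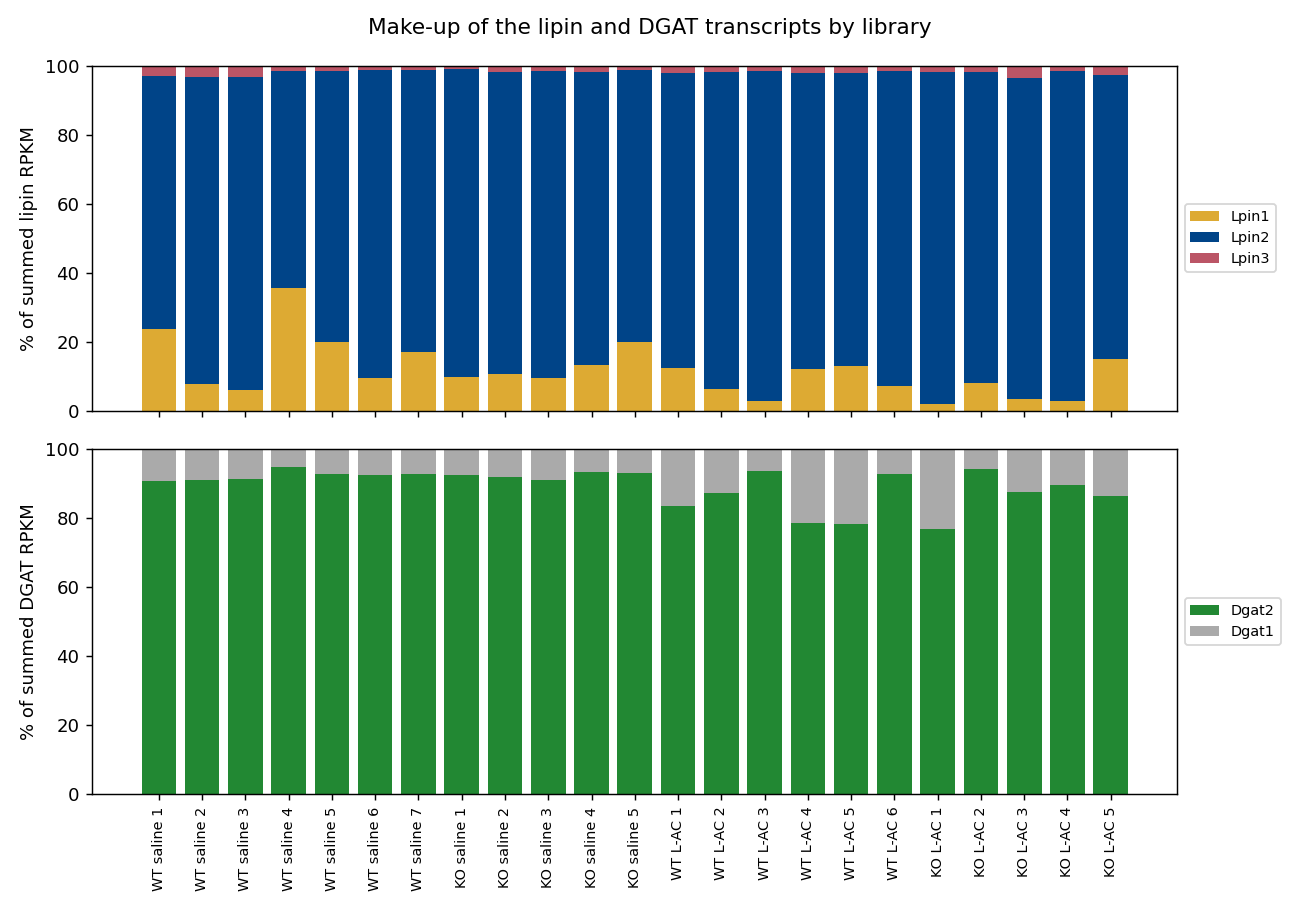
Each bar is 1 liver; the upper panel gives the percent of summed lipin RPKM held by Lpin1, Lpin2 and Lpin3, and the lower panel the percent of summed DGAT RPKM held by Dgat2 and Dgat1. Lpin2 holds at least 62.9% of lipin RPKM in every liver, and Dgat2 holds 76.7 to 94.7% of DGAT RPKM.

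Dgat1 and Dgat2 both complete triglyceride but belong to unrelated protein families. Dgat1 was called higher in both genotypes and Dgat2 in neither, and the difference between them was not tested. Dgat1 (chromosome 15, 76502015 to 76511818, minus strand) had 32.2 to 36.9 CPM with a median of 33.8 in WT saline and 52.4 to 74.2 CPM with a median of 64.7 in WT L-AC. Its KO libraries had 33.0, 38.2, 34.8, 31.2 and 30.3 CPM under saline and 78.8, 57.2, 67.9, 67.2 and 76.5 CPM under L-AC. The saline livers lay close together and the L-AC livers were all above them. Dgat1 was 1.91-fold higher in WT (log2 fold change 0.93 with SE 0.0832 and adjusted p = 6.38e-09) and 2.08-fold higher in KO (log2 fold change 1.05 with SE 0.0957 and adjusted p = 1.30e-08).

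Dgat2 (chromosome 7, 99153663 to 99182713, minus strand) had L-AC livers that spread to both sides of the saline livers. WT saline ran from 435 to 771 CPM with a median of 494, and the 6 WT L-AC livers had 479.6, 539, 985, 348, 294 and 1068 CPM. KO saline livers had 511, 546, 447, 549 and 517 CPM and KO L-AC livers 333, 1149, 604, 731 and 624 CPM. In WT L-AC, replicates 3 and 6 were above all saline livers of both genotypes and replicates 4 and 5 below them all. The log2 fold change was 0.23 in WT (SE 0.266, adjusted p = 0.477) and 0.42 in KO (SE 0.303, adjusted p = 0.257), with 95% intervals of 0.802 to 1.72 and 0.868 to 2.07 times the saline level. Per length Dgat2 stayed the more abundant of the pair, and the ratio of its RPKM to that of Dgat1 was 12.1 ± 2.79 under saline and 7.73 ± 4.79 under L-AC in WT, and 12.0 ± 1.52 and 8.14 ± 4.60 in KO. The L-AC ratios ran from 3.58 to 14.7 in WT and from 3.30 to 15.7 in KO, across the saline range of 9.71 to 17.8.

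Mogat1, a monoacylglycerol acyltransferase that is scarce in lean mouse liver, is encoded on chromosome 1 (78511060 to 78538173, plus strand). Exons of BC035947 on the other strand overlap 188 bases of it (15.6% of its length, by GENCODE M21), and reads there cannot be told apart because counting ignored strand. Its level was 2.87 to 12.4 CPM with a median of 5.34 in WT saline, and the WT L-AC livers had 5.90, 8.40, 16.8, 7.13, 6.22 and 15.2 CPM. KO saline livers had 2.54, 8.34, 2.60, 3.70 and 5.47 CPM and KO L-AC livers 6.92, 14.7, 10.7, 9.79 and 5.56 CPM. The groups overlapped in both genotypes. Mogat1 was 2.11-fold higher in KO (log2 fold change 1.08 with SE 0.401 and adjusted p = 0.0299) and was not called in WT (log2 fold change 0.65 with SE 0.344 and adjusted p = 0.117). Leaving out single animals changed both outcomes: the adjusted p in KO rose to between 0.0538 and 0.0885 without KO saline replicate 1, 3 or 4 or without KO L-AC replicate 2 or 3, and in WT it fell to 0.0294 (log2 fold change 0.90) without WT saline replicate 4. The log2 response of Mogat1 was greater by 0.43 in KO than in WT (SE 0.527), a difference that was not called (adjusted p = 0.9999).

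The same 3 L-AC livers had the most Dgat2 and the most Mogat1. Other KO L-AC livers did not keep the same order for both genes. Replicate 5 there had the lowest Mogat1 (5.56 CPM) but more Dgat2 (624 CPM) than replicates 1 and 3. WT L-AC replicates 3 and 6 had 985 and 1068 CPM of Dgat2 and 16.8 and 15.2 CPM of Mogat1, each above the other 4 livers of the group. KO L-AC replicate 2 led its group in both, at 1149 and 14.7 CPM. Cd36, a fatty acid uptake protein, had 560, 481 and 785 CPM in these 3 livers, and 193 to 485 CPM in the other 8 L-AC livers. It was picked as the gene nearest to Mogat1 in pattern over these same livers, saline livers included. Its likeness to Mogat1 therefore follows from that choice and is no separate result. On the second principal component of all genes tested, which held 5.81% of the variance, the 3 livers had -18.8, -14.7 and -27.6, the lowest values of their groups, and KO L-AC replicate 4 had -14.5. Among saline livers, WT saline replicate 4 had the highest Dgat2 (771 CPM), Mogat1 (12.4 CPM), Cd36 (348 CPM) and Lpin1 (238 CPM). The labels give no batch, and what sets these livers apart was not tested.

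**Figure D3:**
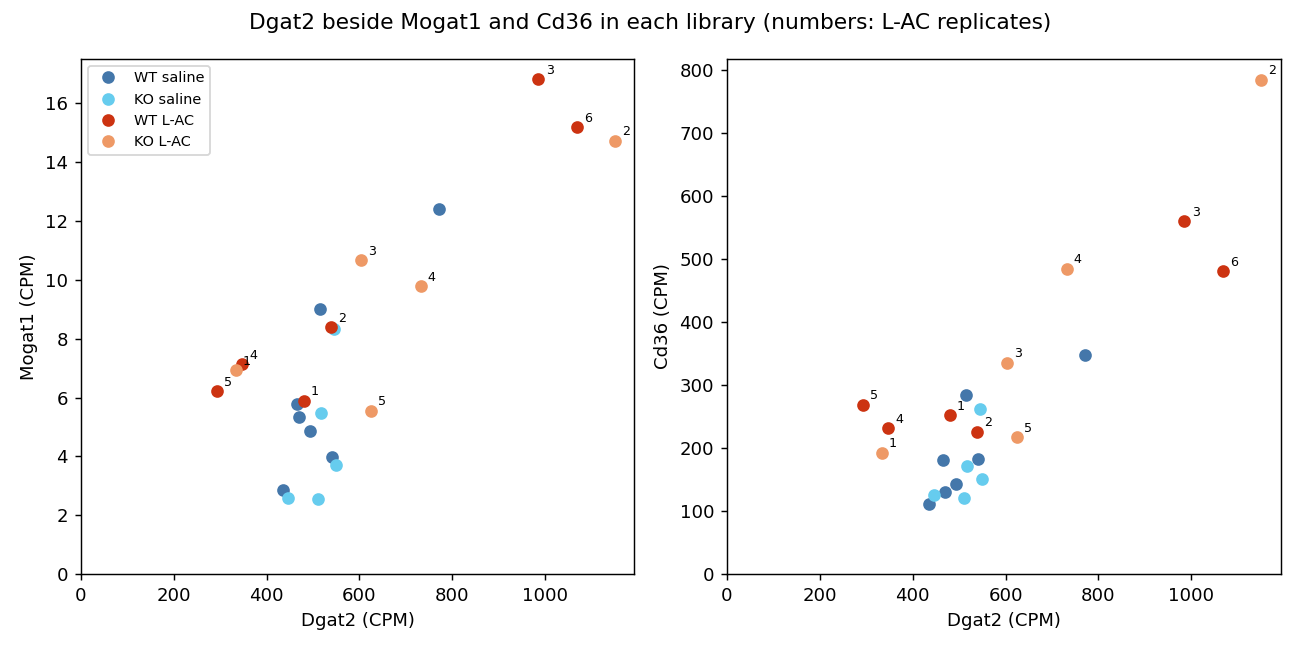
Mogat1 (left) and Cd36 (right) in CPM against Dgat2 in CPM, each point 1 liver, coloured by group, with replicate numbers beside L-AC livers. WT L-AC replicates 3 and 6 and KO L-AC replicate 2 stand at the upper right in both panels, with Dgat2 at 985, 1068 and 1149 CPM. Cd36 was picked for its likeness to Mogat1 in these same livers.

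The order of the 9 genes per length changed with treatment through Lpin2. In WT saline it was Dgat2 (234 ± 50.1 RPKM), Agpat2 (123 ± 17.8), Agpat3 (87.8 ± 7.64), Lpin2 (62.0 ± 16.7), Gpam (24.9 ± 3.46), Dgat1 (19.5 ± 0.991), Lpin1 (15.5 ± 13.3), Mogat1 (5.25 ± 2.73) and Lpin3 (1.51 ± 0.357). The same order held for the means of KO saline. In that WT group the ranges of neighbours overlapped except between Dgat2 and Agpat2, between Lpin2 and Gpam and between Mogat1 and Lpin3. In WT L-AC, Lpin2 (199 ± 20.5 RPKM) came after Dgat2 (275 ± 146) and before Agpat2 (171 ± 33.1) and Agpat3 (144 ± 11.5). There the ranges of neighbours in this order overlapped, those of Lpin2 and Agpat3 did not, and Dgat2 was above Lpin2 in 4 of 6 livers. In KO L-AC, Agpat2 (175 ± 58.2 RPKM) and Lpin2 (174 ± 23.9) had nearly the same mean, and Agpat2 was the higher in 2 of 5 livers.

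The comparison of genotypes asked whether loss of Ehhadh went with other levels of these genes under the same treatment. Under saline 0 of the 9 were called by edgeR, where 0.0141% of all genes tested were called, and under L-AC also 0 of 9, against 0.0141%. At an unadjusted p under 0.05 the count was 0 of 9 in both. Over all 14196 genes tested it was 264 under saline and 643 under L-AC. DESeq2 and limma-voom likewise called 0 of the 9. Under saline the log2 differences of KO from WT ran from -0.55 for Lpin1 to 0.22 for Lpin2, and under L-AC from -0.65 for Lpin1 to 0.15 for Dgat2. The Lpin1 value under L-AC was -1.60 without KO L-AC replicate 5 (adjusted p = 0.607) and was not called there either. The ranges of the groups overlapped for all 9 genes in both comparisons, and such overlap was not counted over all genes.

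How far the genotypes may differ depended on the gene. The 95% interval of the KO to WT ratio under saline was 0.8293 to 1.04 for Agpat3 and 0.862 to 1.11 for Dgat1. It was 0.909 to 1.39 for Gpam, 0.758 to 1.25 for Agpat2, 0.935 to 1.44 for Lpin2 and 0.600 to 1.24 for Lpin3. For Dgat2 it was 0.652 to 1.46, for Mogat1 0.417 to 1.22 and for Lpin1 0.289 to 1.61, so that for Lpin1 even a ratio well away from 1 was not detectable at this spread. Under L-AC the interval was 0.819 to 1.04 for Agpat3, 0.934 to 1.21 for Dgat1, 0.696 to 1.09 for Lpin2, 0.692 to 1.07 for Gpam, 0.790 to 1.33 for Agpat2 and 0.751 to 1.53 for Lpin3. For Dgat2 it was then 0.735 to 1.68, for Mogat1 0.561 to 1.64 and for Lpin1, again the widest, 0.262 to 1.54.

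The test of whether L-AC acted differently in the genotypes called 0 of the 9 genes, as it called 0.00% of all genes tested. At an unadjusted p under 0.05 the count was 0 of 9 and 320 of all genes, and DESeq2 and limma-voom called 0 of 9. Lpin2 had a log2 response smaller by 0.41 in KO (-0.41, 95% interval of the ratio of responses 0.550 to 1.03, unadjusted p = 0.0696), and Gpam by 0.38 (-0.38, 0.566 to 1.04, unadjusted p = 0.0869). The other differences ran from -0.11 for Lpin1 to 0.43 for Mogat1. The Lpin1 value moved to -1.05 without KO L-AC replicate 5 and to -0.92 with limma-voom, and was called in neither. These contrasts use the same 23 livers as the comparisons above.

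**Figure D4:**
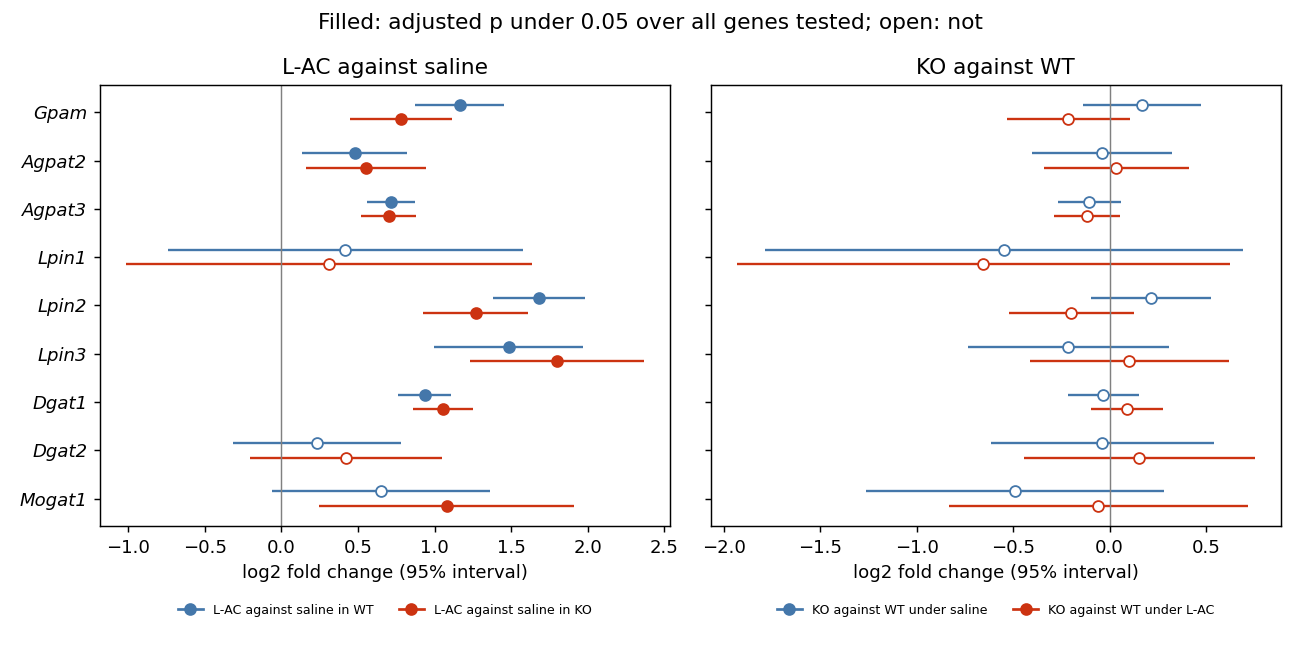
Log2 fold change of each gene with its 95% interval: L-AC against saline in WT and KO (left) and KO against WT under saline and L-AC (right), with filled points called at an adjusted p under 0.05. Filled points appear on the left alone, for 6 genes in WT and 7 in KO, and the intervals of Lpin1 are the widest in both panels.

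Of 11 other enzymes of glycerolipid synthesis, 7 were called higher and 1 lower in WT and 8 higher and 1 lower in KO, with median log2 fold changes of 0.45 and 0.70 (all genes tested -0.01 in both). Over all genes tested, 26.6% were called higher and 26.7% lower in WT, and 25.2% and 23.6% in KO. Values without a unit for these genes and the lists that follow are log2 fold changes with L-AC, WT first. Gpat3, another glycerol 3-phosphate acyltransferase, had log2 fold changes of 1.74 (SE 0.171) in WT and 2.09 (SE 0.200) in KO, and Gpat4, of the endoplasmic reticulum, 0.89 (SE 0.122) and 1.01 (SE 0.141). Lclat1, an acyltransferase of cardiolipin and other phospholipids, had 0.94 (SE 0.0816) and 0.96 (SE 0.0937), and Agpat5 0.45 (SE 0.105) and 0.75 (SE 0.120). The gene called lower was Gpat2, at -1.34 (SE 0.313) and -1.04 (SE 0.357), named after its values were seen, with 2.11 ± 0.875 CPM in WT saline.

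Of 6 genes for the supply of glycerol 3-phosphate, 3 were called higher and 2 lower in each genotype, beside 26.6% and 26.7% of all genes in WT and 25.2% and 23.6% in KO. Aqp3 and Aqp7, channels that pass glycerol, had the largest changes, 4.67 (SE 0.481) and 3.35 (SE 0.5677) in WT and 4.40 (SE 0.551) and 2.69 (SE 0.638) in KO. Their levels were low, 0.126 ± 0.0437 CPM of Aqp3 in WT saline and 3.38 ± 1.68 CPM in WT L-AC, and for Aqp7 0.180 ± 0.171 and 1.88 ± 1.11 CPM. Aqp9, the main glycerol channel of hepatocytes, fell, with -0.71 (SE 0.122) and -0.67 (SE 0.138). Gk, glycerol kinase, rose by 1.14 (SE 0.131) and 0.88 (SE 0.149).

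Among partners of the lipins and of DGAT, 2 of 6 were called higher and 1 lower in each genotype, counts near the shares of all genes (26.6% and 26.7% in WT, 25.2% and 23.6% in KO). Fitm2, which binds triglyceride and helps droplets to form, had 1.61 (SE 0.165) in WT and 1.61 (SE 0.191) in KO, and Bscl2, encoding seipin, 0.58 (SE 0.128) and 0.74 (SE 0.147). Fitm1, a relative of Fitm2 known from muscle, was lower, at -1.04 (SE 0.351) and -1.06 (SE 0.397). It was not scarce in these livers, with 46.0 ± 17.9 CPM in WT saline, where Fitm2 had 37.55 ± 6.36 CPM. Neither Ctdnep1 nor Cnep1r1, which form the phosphatase that activates lipins, was called, at -0.03 and -0.07 in WT and 0.07 and -0.02 in KO.

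Of 16 tested genes that lead from phosphatidic acid or diacylglycerol to phospholipids, 4 were called higher and 4 lower in WT and 5 higher and 4 lower in KO, with medians of 0.14 and -0.0031. These counts are near the shares of all genes, 26.6% and 26.7% in WT and 25.2% and 23.6% in KO. Chkb, a choline kinase, rose by 1.14 (SE 0.0875) and 1.14 (SE 0.100), and Cdipt, which makes phosphatidylinositol, by 0.33 (SE 0.0549) and 0.35 (SE 0.0627). Pemt, which methylates phosphatidylethanolamine to phosphatidylcholine, was lower at -0.75 (SE 0.128) and -0.93 (SE 0.145), and Etnk2, an ethanolamine kinase, at -1.44 (SE 0.285) and -0.78 (SE 0.316). Of the 6 diacylglycerol kinases tested, which return diacylglycerol to phosphatidic acid, 2 were called higher in WT and 3 in KO, and 0 lower, where 26.6% of all genes were called higher in WT and 25.2% in KO. Dgkh had 1.80 (SE 0.199) and 1.93 (SE 0.232) at a level of 1.03 ± 0.296 CPM in WT saline, and Dgke 0.92 (SE 0.228) and 0.85 (SE 0.265). Dgkd, called in KO, had 0.22 (SE 0.0992) and 0.30 (SE 0.113).

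Of 10 transcriptional regulators of lipid synthesis and of the response to fasting, 3 were called higher and 4 lower in WT and 2 higher and 4 lower in KO. Among all genes 26.6% were called higher and 26.7% lower in WT, and 25.2% and 23.6% in KO. Mlxipl, encoding the carbohydrate response factor ChREBP, was 3.16-fold lower in WT and 3.57-fold lower in KO, at -1.66 (SE 0.138) and -1.84 (SE 0.156), from 354 ± 39.1 CPM in WT saline to 112 ± 25.6 CPM in WT L-AC. Srebf1, the sterol response element binding factor of fatty acid synthesis, was lower at -1.13 (SE 0.205) and -0.68 (SE 0.229), and Nr3c1, the glucocorticoid receptor, at -0.53 (SE 0.0764) and -0.61 (SE 0.0866). Creb3l3, a liver factor of triglyceride metabolism, was higher at 0.55 (SE 0.0835) and 0.80 (SE 0.0957). Gpam, a known target of the Srebf1 protein, was higher in the same comparisons. The protein was not measured, and a link between the levels of these genes was not tested. None of the 55 genes tested in these 6 lists was called between genotypes under either treatment, or in the test of a different response, by edgeR, DESeq2 or limma-voom. At an unadjusted p under 0.05 edgeR gave 0 of the 55 under saline, 3 under L-AC and 1 for the response. Over all 14196 genes tested the same counts were 264, 643 and 320.

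**Figure D5:**
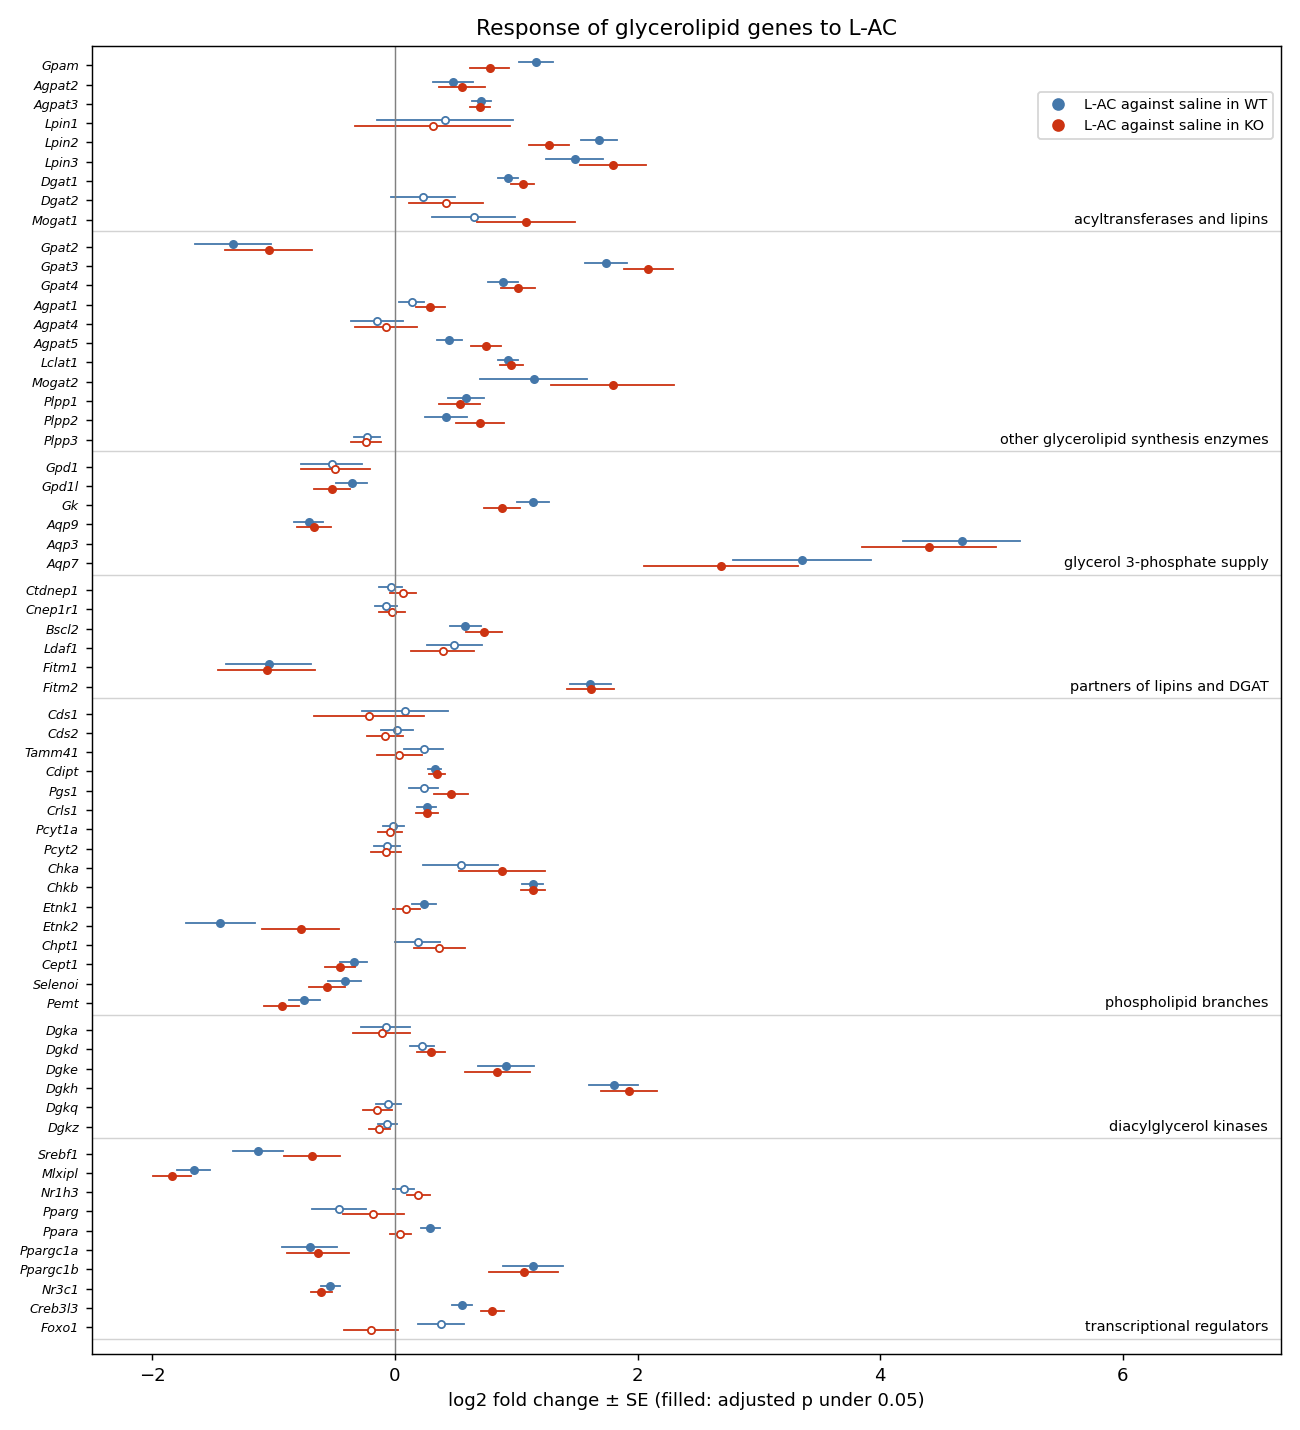
Log2 fold change with L-AC (x axis, ± SE) in WT and KO for the 9 genes (top) and for the tested genes of 6 further lists, with filled points called at an adjusted p under 0.05. The called points of the 9 genes are all to the right of 0, the glycerol channels Aqp3 and Aqp7 have the largest changes, and Mlxipl the largest fall.

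The genes most like each of the 9 in pattern were taken by the root-mean-square (RMS) difference of log2 CPM, centred per gene, over the 23 livers and among 11329 genes with a mean of at least 1 CPM. Agpat3 lay closest to Lrp10 (0.108) and Optn (0.111), and Dgat1 to Tbrg4 (0.111) and Fastk (0.120). Gpam was nearest to Myo5b (0.202) and Dnmbp (0.208), and Agpat2 to Hccs (0.189) and Fdxacb1 (0.210). For Lpin2 the nearest were Grn (0.247) and Ppp2r2d (0.250), and for Lpin3 Zfp746 (0.245) and Tmem87b (0.247). Dgat2 was nearest to Acsl5 (0.298) and Acadm (0.317), an acyl-CoA synthetase and a medium-chain acyl-CoA dehydrogenase, and Mogat1 to Cd36 (0.298) and Nudt12 (0.455). The nearest to Lpin1, Il1r1 and Tmc7, were the farthest off, at 0.704 and 0.731. The SD on this scale was 1.12 for Lpin1 and 0.495 for Dgat2. Against its own SD, the nearest gene to Dgat2 lay about as far off as that to Lpin1. All these values share the same libraries.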

How the data were processed

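The deposited files hold raw counts, the reads per gene and library, which the authors made with featureCounts 1.4.4 on UCSC gene models of mm10. This is per the file headers, which also give primary alignments only, no use of strand, and a read counted for each gene that it touched. Reads were aligned with STAR 2.4.0 to mm10 (GRCm38), per the submitters' processing notes. Each mouse gave 1 library. Replicate numbers follow accession order and pair no animals, and the labels give no batch or date. No 2 replicates agreed within sampling noise (56 pairs, lowest chi-square per degree of freedom 44.1).

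Genes were kept by filterByExpr (minimum count 10, minimum total 15), which left at least 99.95% of reads. After TMM scaling, all 23 libraries entered 1 model with a mean for each group, with edgeR quasi-likelihood F-tests (version 4.0.16 in R 4.3.3), two-sided, with Benjamini-Hochberg adjustment over the 14196 genes tested and calls under 0.05. SE is the size of the log2 fold change over the square root of F. RPKM divides CPM by the gene length of the files. The fits were tested on simulated data with genes raised in WT L-AC alone, a simpler setting than the rises and falls found here. Other settings tried were edgeR with DESeq2's size factors, limma-voom (limma 3.58.1), DESeq2 1.42.0, no filter on low counts, at least 1 CPM in 5 libraries, age as a covariate, models holding the compared groups alone, a threshold of 0.01, and leaving out each library in turn.

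The 9 genes and the 6 other lists (60 symbols, all found, 8 of them by an older symbol, 55 tested) were chosen with earlier results of these data known. From each list up to 4 called genes with the smallest p are named, and for each of the 9 genes the 2 with the nearest pattern (log2 CPM with 0.5 added). Promoters are from RefSeq on GRCm38.p6. A planned search of protein motifs was not run.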

Additional observations from a re-analysis of the deposited data

Results flagged for a closer look

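In 4 of 52 groups of libraries examined (the levels of the 9 genes and 4 shares of lipin or DGAT RPKM, in each of the 4 groups), 1 library stood apart from the others of its group by Dixon's criterion, where chance alone sets apart about 1 group in 20. Agpat2 in KO saline replicate 2 was at 261 CPM, and the next library of that group at 184 CPM. Lpin1 in WT saline replicate 4 was at 238 CPM, with the next library at 107 CPM. Lpin1 in KO L-AC replicate 5 was at 219 CPM, with the next at 72.4 CPM. Dgat2 in WT saline replicate 4 was at 771 CPM, with the next at 540.1 CPM. The same liver, WT saline replicate 4, thus stood apart for Lpin1 and for Dgat2.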

How the results depend on the processing

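The calls of Gpam, Agpat3, Lpin2, Lpin3 and Dgat1 with L-AC held in both genotypes under all 8 alternatives and without any 1 library. Of the 9 genes, 5 to 7 were called in WT and 6 or 7 in KO when a library was left out, and 5 in each at an adjusted p under 0.01, which ended the calls of Agpat2 in both and of Mogat1 in KO. Mogat1 in KO was also lost with age as a covariate (log2 fold change 1.002, adjusted p = 0.0573), and Agpat2 in KO when the model held the 2 compared groups alone (0.54, adjusted p = 0.0609). Signs turned for values that were never called, and the cause was not tested. Lpin1 in KO was -0.21 with limma-voom and -0.38 with age as a covariate, and ran from -0.63 to 0.55 over the libraries left out. For KO against WT under L-AC, Agpat2 was -0.0070 with limma-voom and -0.050 with age, and Lpin3 -0.16 with age. With age the Agpat2 difference in response was -0.0025. Over libraries left out, KO against WT under saline ran from -0.18 to 0.025 for Agpat2, from -0.083 to 0.0021 for Dgat1 and from -0.079 to 0.078 for Dgat2. Under L-AC it ran from -0.15 to 0.14 for Agpat2, from -0.11 to 0.38 for Dgat2, from -0.13 to 0.24 for Lpin3 and from -0.27 to 0.15 for Mogat1. The difference in response ran from -0.11 to 0.22 for Agpat2, from -0.047 to 0.034 for Agpat3, from -1.05 to 0.14 for Lpin1 and from -0.073 to 0.42 for Dgat2. None of the 9 genes was called between genotypes, or for a different response, under any alternative that was run. Over all genes, KO against WT gave 2 calls under saline, 7 with DESeq2 and 5 without KO saline replicate 1. Under L-AC it gave 2 calls, 15 with DESeq2, 5 when the model held the compared groups alone, 4 when WT L-AC replicate 4 was left out, 4 when KO L-AC replicate 2 was, and 6 when KO L-AC replicate 4 was. Phospholipid genes called in WT numbered 8, and 5 at an adjusted p under 0.01. Diacylglycerol kinases called in KO numbered 3, and 1 at that threshold or without KO L-AC replicate 5. No paired analysis was possible because the labels tie no animals across groups.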
